A study of Homo sapiens with 8 samples.

Results

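Binding sites of G3BP1 on RNA were described in HEK293T cells exposed to PDS, from the single list of 2925 peaks that combines both replicates of that condition; the 2 lists of the series together hold 4346 peaks. HEK293T is an established line of human embryonic kidney cells. The cells received 20 µM PDS for 12 h before crosslinking with ultraviolet light (UVA in the labels), and 4 libraries stand behind the list: 2 immunoprecipitations (IP) with an antibody to G3BP1 and 2 matched inputs made without it. The labels do not say whether the replicates came from separate cultures. PDS is not spelled out in the labels; in work on guanine quadruplexes the letters usually stand for pyridostatin. Every row of the list was taken as a member, without further selection. The untreated list was only counted, and no contrast with it was made.

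G3BP1 is an RNA-binding protein that nucleates stress granules, the assemblies of untranslated mRNA and protein that form when translation initiation is blocked. Guanine quadruplexes are four-stranded structures that guanine-rich RNA or DNA can fold into, and pyridostatin binds to and stabilises them. In single-end enhanced crosslinking and immunoprecipitation (seCLIP), RNA is crosslinked to protein, trimmed and recovered with the protein, so that a peak marks a stretch of RNA with more IP reads than input reads.

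The enrichment of each peak is the authors' own value, read as the log2 fold of IP over input, and no value exists per replicate. The list therefore allows no test against the spread between replicates, and the values below are descriptions. All log2 folds lay above 3, an 8-fold enrichment, with a median of 3.59 and a highest value of 6.31. The lowest 295 peaks (10.1%) stayed under 3.1. The −log10 p of the peaks ranged up to 87.94, apart from 82 peaks at exactly 400, which was read as a stand-in for a p too small to be written. Read totals were not used here, and the depth under each peak is therefore unknown. The 95% intervals beside shares are exact (Clopper-Pearson) and cover counting error only; neighbouring peaks share their transcript and are not independent.

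The first question was how the sites are spaced. Peaks were grouped along the strand: 2431 of 2925 (83.1%, 81.7 to 84.5%) had another peak within 10000 nt on the same strand, 1970 (67.4%, 65.6 to 69.0%) within 1000 nt and 1534 (52.4%, 50.6 to 54.3%) within 100 nt. No 2 peaks overlapped on the same strand, and there were 0 overlaps between opposite strands. Same-strand peaks no more than 10000 nt apart were chained into loci, which stand in for transcripts. Of the 1968 gaps between neighbours within a locus, 693 (35.2%, 33.1 to 37.4%) were 0 nt, meaning that both peaks shared a border, and 537 (27.3%, 25.3 to 29.3%) exceeded 1000 nt. The median over all gaps was 111.5 nt. Once the shared borders were set aside, the median of the 1275 remaining gaps was 689 nt, with quartiles of 129 and 2322.5 nt, and 280 of them were 100 nt or less. Gaps are genomic distances and contain introns, so they are upper limits for the distance on the spliced mRNA.

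**Figure D1:**
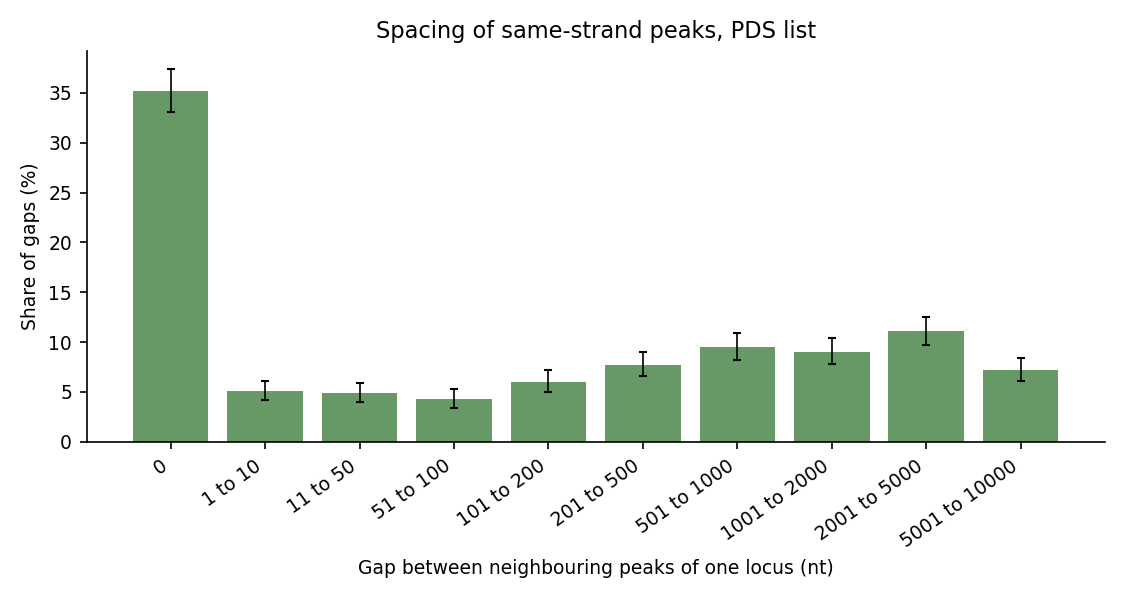
Share of the 1968 gaps between neighbouring same-strand peaks of a locus (vertical axis, percent) by gap length (horizontal axis, nt), with exact 95% intervals as bars. Shared borders (0 nt) make up 35.2% of gaps, and no other class holds more than 11.1%.

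Neighbouring peaks differed least in enrichment where they shared a border. Pairs of peaks from different loci were not compared. The median absolute difference in log2 fold was 0.24 (quartiles 0.11 and 0.44) at shared borders. Between 1 and 500 nt it showed no steady rise with distance. It was 0.31 at gaps of 1 to 10 nt, 0.31 over 10 and up to 50 nt, and 0.30 over 50 and up to 100 nt. It was 0.28 over 100 and up to 200 nt, and 0.31 over 200 and up to 500 nt. Longer gaps gave 0.33 over 500 and up to 1000 nt, and 0.37 over 1000 and up to 2000 nt. The median was 0.34 over 2000 and up to 5000 nt, and 0.38 over 5000 and up to 10000 nt. These differences compare 2 peaks of the same transcript region and carry no replicate error.

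Abutting peaks formed 493 runs that held 1186 peaks, 40.5% of the list (38.8 to 42.4%). Most runs were short: 365 held 2 peaks, 78 held 3, 34 held 4, 11 held 5, 4 held 6 and 1 held 7. A run was 99 nt long at the median (quartiles 63 and 146 nt), against 77 nt for a peak outside runs. The pieces of runs had a median width of 41 nt. Peaks in runs had a median log2 fold of 3.81, and those outside runs had 3.47. Very short peaks belonged mostly to runs: 121 of the 154 peaks of 5 nt or less (78.6%, 71.2 to 84.8%) abutted another. Enrichment changed little within a run, with a median range of 0.32 on the log2 scale, and it ranged by 1 or more in 30 of 493 runs (6.09%).

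The strongest piece of a run had no fixed place. Among 128 runs of 3 or more peaks it was the 5′-most piece in 47 (36.7%, 28.4 to 45.7%), the 3′-most in 33 (25.8%, 18.5 to 34.3%) and an interior piece in 48 (37.5%, 29.1 to 46.5%). Interior pieces made up 43.9% of the 456 peaks concerned. The latter is a share of peaks and not of runs, so longer runs weigh more in it. In the 365 runs of 2 peaks the 5′ piece was the stronger in 205 (56.2%, 50.9 to 61.3%). The strongest pieces were 38 nt wide at the median and the others 35 nt.

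The 5 longest runs lay in 4 genes. Gene names are background knowledge of where well-known genes lie in hg19, the build of the list, and were not read from a file of that build. The run of 7 peaks spanned 295 nt of SPTBN1, which encodes a beta spectrin of the membrane skeleton (chromosome 2, plus strand, 54856126 to 54856420). From 5′ to 3′ its log2 folds were 5.50, 5.79, 5.65, 5.13, 5.34, 5.20 and 5.10, so that the 3 pieces at the 5′ end were the strongest. Both runs of 6 in PLEC, the gene of the cytoskeletal linker plectin, lay on the minus strand of chromosome 8. The upstream one (144998700 to 144998954) rose and fell, with log2 folds of 4.67, 5.03, 5.11, 4.70, 4.69 and 4.87. The downstream one (144997967 to 144998171) climbed at every step, from 4.41 through 4.57, 4.68, 4.91 and 5.12 to 5.25. A run in DBN1, which encodes the actin-binding protein drebrin (chromosome 5, minus strand, 176894482 to 176894628), stayed between 3.49 and 4.10. The run in EIF3A, the gene of a scaffold subunit of initiation factor eIF3 (chromosome 10, minus strand, 120802070 to 120802284), held 4 pieces between 3.18 and 3.32 followed by 1 of 3.88 and 1 of 3.65.

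**Figure D2:**
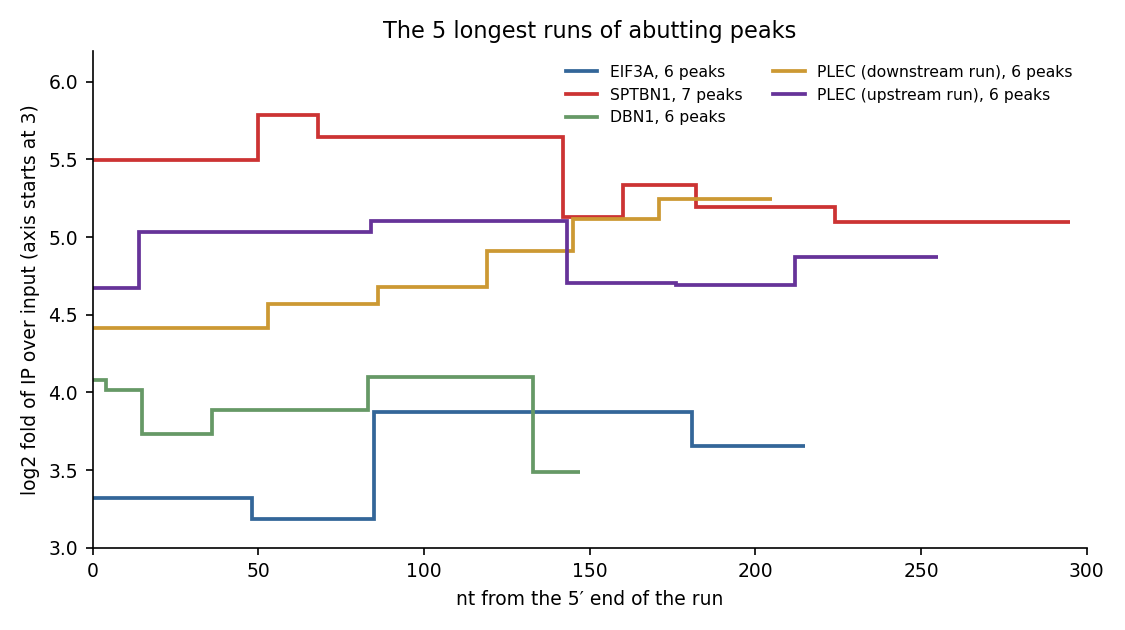
Log2 fold of IP over input (vertical axis) along the 5 longest runs of abutting peaks, drawn from the 5′ end of each run (horizontal axis, nt); each step is 1 peak. The SPTBN1 run lies highest, from 5.10 to 5.79, and the downstream PLEC run climbs from 4.41 to 5.25.

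The second question was how the sites are shared out among transcripts. The 2925 peaks fell into 957 loci, of which 494 (51.6%, 48.4 to 54.8%) held a single peak. At the other end, 52 loci held 10 or more peaks and 17 held 20 or more. The 20 loci with most peaks carried 593 peaks, 20.3% of the list (18.8 to 21.8%). That share was 11.2% when peaks were chained over at most 1000 nt, and 45.5% among the 808 peaks with a log2 fold of at least 4 and a −log10 p of at least 5. In the whole list, 115 loci (12.0%) were enough to hold 50% of it. Counted by bound length, the same 20 loci held 24736 of 196589 nt (12.6%), a smaller share than by peaks.

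**Figure D3:**
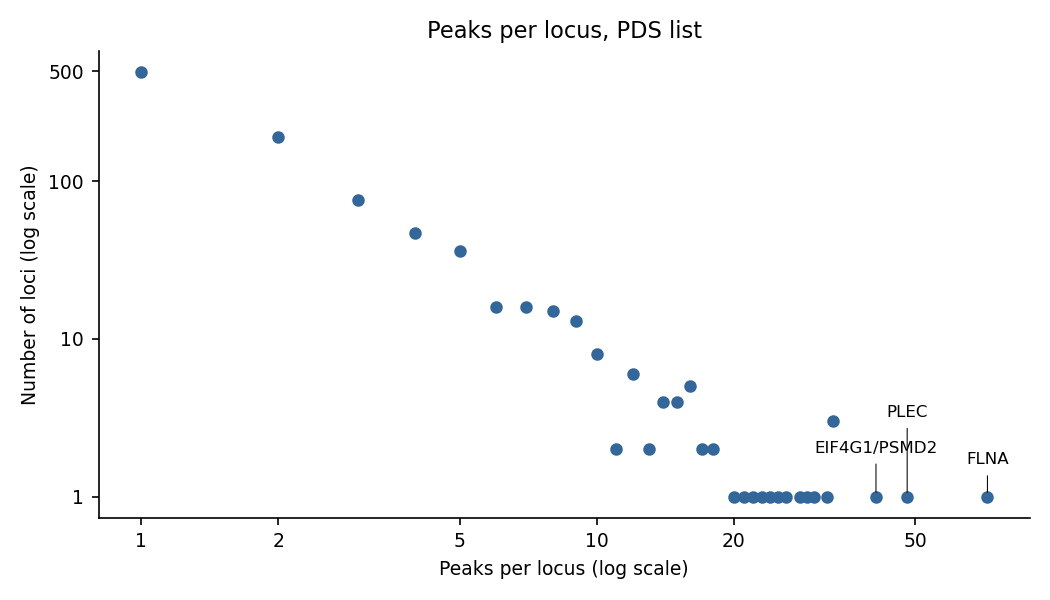
Number of loci (vertical axis, log scale) against peaks per locus (horizontal axis, log scale), 1 point per number of peaks. The points fall from 494 loci with 1 peak to single loci with 41 peaks (EIF4G1 with its neighbour PSMD2), 48 peaks (PLEC) and 72 peaks (FLNA).

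Loci with more peaks had stronger, narrower and closer peaks. The median log2 fold was 3.33 in loci of 1 peak, 3.44 in loci of 2, 3.53 in loci of 3 to 4, 3.61 in loci of 5 to 9, 3.66 in loci of 10 to 19 and 4.22 in loci of 20 or more. A log2 fold of at least 4 was reached by 46 of the 494 lone peaks (9.31%) and by 328 of the 540 peaks in loci of 20 or more (60.7%), against 808 of 2925 (27.6%) in the whole list. Of the 105 peaks at 5 or above, 79 (75.2%, 65.9 to 83.1%) lay in those 17 loci. Peaks in all loci of 10 or more exceeded lone peaks by 0.58 on the log2 scale (medians 3.91 and 3.33), a difference that fell to 0.29 without the 20 loci with most peaks. Across the 957 loci, Spearman's rho between the number of peaks and their median log2 fold was 0.32, a description over loci that share libraries and depth.

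Peak width moved the other way. Its median was 102.5 nt in loci of 1 peak, 56 nt in loci of 5 to 9 and 37 nt in loci of 20 or more. Of the peaks in loci of 20 or more, 66.7% belonged to runs, against 24.5% in loci of 2. After abutting peaks were joined, the median stretch was still 62 nt in loci of 20 or more, against 102.5 nt in loci of 1 peak. The median gap fell in parallel, from 369.5 nt in loci of 2 peaks through 157 nt in loci of 5 to 9 to 11 nt in loci of 20 or more. Over the whole list, Spearman's rho between log2 fold and width was −0.12 across 2925 peaks.

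**Figure D4:**
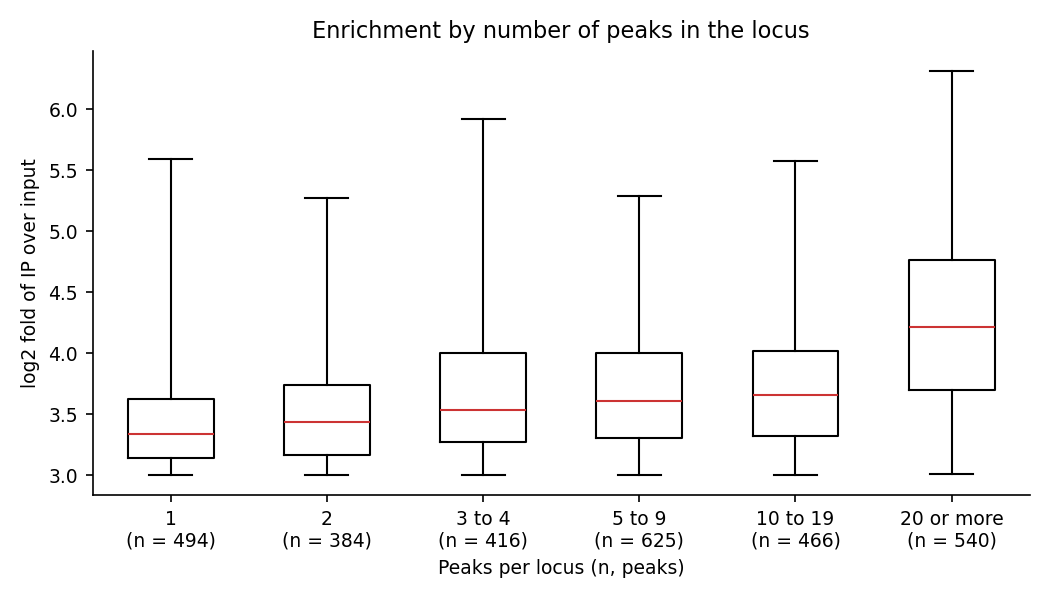
Log2 fold of IP over input (vertical axis) of the peaks by the number of peaks in their locus (horizontal axis); boxes span the quartiles, the red line is the median and whiskers reach the lowest and highest peak. Medians climb from 3.33 in loci of 1 peak to 4.22 in loci of 20 or more, while every class starts near the limit of 3.

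The third question was which transcripts were heavily bound. Genes were counted among 89 well-known ones with intervals from background knowledge, which held 1216 of the 2925 peaks (41.6%). Among them, FLNA came first with 72 peaks, followed by SPTBN1 with 49, PLEC with 48 and PRKDC with 44. RRBP1 held 38, EIF4G1 37 and DYNC1H1 35. Of the 89 genes, 52 held 10 or more peaks, 1111 together. Some of the 89 were named because their loci had been seen to be heavily bound, and all 52 loci of 10 or more peaks hold a named gene. These counts and the 41.6% therefore follow in part from the choice of genes. Other genes were not counted, so a heavily bound gene split over several smaller loci could be missed. Chaining and genes did not always coincide: 18 of the 52 genes were split over several loci, and the EIF4G1 and ALDOA loci each took in a neighbour, PSMD2 with 4 peaks and PPP4C with 5. Peak numbers were not scaled to transcript length or RNA level, which were not measured here.

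FLNA encodes filamin A, which crosslinks actin filaments. Its 72 peaks (chromosome X, minus strand, 153577070 to 153596243) covered 2099 nt and joined into 40 stretches. Every one of them was high: the lowest log2 fold was 4.18, the median 4.77 and the highest 5.76, and 21 peaks reached 5. Among the genes with 10 or more peaks, 47 of 52 had a lowest log2 fold under 3.3, whereas the lowest peaks of FLNA and SPTBN1 lay above 3.5. Its pieces were small, with a median width of 24 nt and 18 peaks of 10 nt or less. Joined over gaps of up to 500 nt, the peaks formed 13 clusters, and the fullest held 18 peaks within 870 nt (153592982 to 153593851), of which peaks covered 50.9%.

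SPTBN1 had the highest enrichment of the 52 genes, with a median log2 fold of 5.09 over 49 peaks and 29 peaks at 5 or above. Its lowest peak, at 3.76, was the isolated first one, 66040 nt upstream of the next. The remaining peaks lay in 2 loci of 22 and 26 peaks (54851943 to 54859893 and 54872366 to 54893190), with medians of 5.12 and 5.03. The most enriched peak of the whole list was in the second of them, at 54880802 to 54880909, 108 nt wide, with a log2 fold of 6.31 and a −log10 p of 400.

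PLEC was the most compact of the 3 leading genes, with 48 peaks on 14294 nt of chromosome 8 (144993918 to 145008211, minus strand) and 160 bound nt per kb. A single cluster of 30 peaks took up 2940 nt (144996952 to 144999891) and carried 62.5% of them. The stand-in p of 400 occurred in 26 of the 48 peaks, out of 82 in the list, ahead of SPTBN1 with 11 and FLNA with 10. The log2 folds of PLEC ran from 3.44 to 5.89 with a median of 4.66.

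Median enrichment was lower in SPTAN1, the motor proteins and DBN1 than in FLNA, SPTBN1 and PLEC. SPTAN1, the alpha spectrin that pairs with beta spectrins, held 32 peaks over 42078 nt of chromosome 9 (131339139 to 131381216, plus strand), with a median log2 fold of 3.75 and 10 of its 17 clusters consisting of 1 peak. MYH9, a heavy chain of non-muscle myosin, held 33 peaks (chromosome 22, minus strand, 36680454 to 36700146) with a median of 3.89, and 12 of them lay in a 990-nt cluster with a median of 4.28. MYH10, its paralog, held 17 peaks that all stayed between 3.12 and 3.76. DYNC1H1, the heavy chain of cytoplasmic dynein, held 35 peaks over 79981 nt with a median of 3.83. DBN1 held 28 peaks with a median of 3.78, and 16 of them lay within 966 nt.

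**Figure D5:**
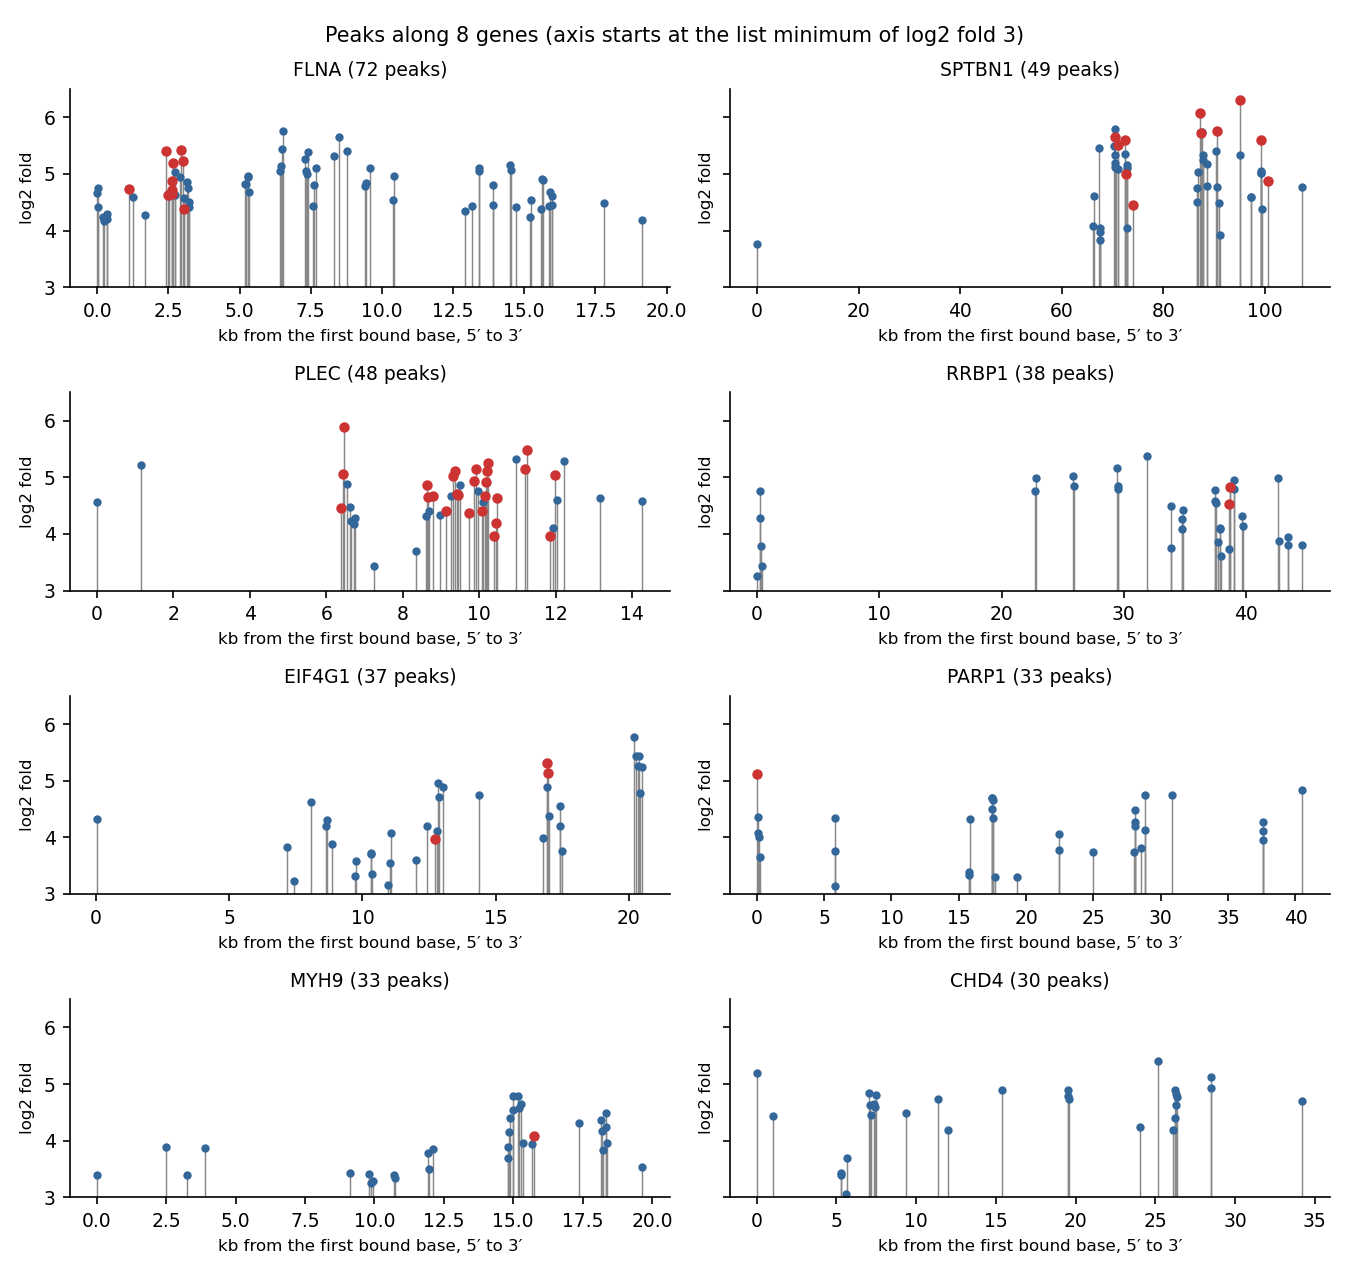
Log2 fold of each peak (vertical axis, starting at 3) along 8 genes, in kb from the 5′-most bound base (horizontal axis); red points have a −log10 p of 400. FLNA peaks start at 4.18, PLEC carries 26 red points, and the EIF4G1 peaks at the 3′ end reach 5.76.

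Translation factors were led by EIF4G1, the scaffold that joins the cap-binding protein, the helicase eIF4A and eIF3 on an mRNA. Its 37 peaks (chromosome 3, plus strand, 184032356 to 184052914) had a median log2 fold of 4.19, and 7 reached 5. In the last 500 nt of that span lay 6 peaks, 5 of them above 5, at 5.76, 5.44, 5.25, 5.43, 4.79 and 5.24 from 5′ to 3′. EIF3A held 25 peaks with a median of 3.65 in only 8 stretches, so that 96.0% of its peaks abutted another. EEF2, the elongation factor that translocates the ribosome, held 17 peaks within 5898 nt, with a median of 3.69 and a range from 3.09 to 4.30.

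Among nuclear proteins, PRKDC, the catalytic subunit of DNA-dependent protein kinase, held 44 peaks scattered over 186887 nt of chromosome 8 in 28 clusters, of which 16 were single peaks. Its median log2 fold was 4.02 and its highest 5.37. PARP1, which adds ADP-ribose chains at DNA breaks, held 33 peaks (chromosome 1, minus strand, 226555217 to 226595773) with a median of 4.13. The strongest PARP1 peak, at 5.11 with a −log10 p of 400, was the 5′-most of a span of 40557 nt. CHD4, a chromatin remodeler of the NuRD complex, held 30 peaks (chromosome 12, minus strand, 6682294 to 6716548) with a median of 4.67, and 26 of them reached 4. TRIM28, a transcriptional corepressor, held 20 peaks within 6038 nt, 9 in the 5′ part of that span, 0 in the middle and 11 in the 3′ part, when it was divided into 3 equal parts.

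Metabolic enzymes differed in their enrichment. FASN, the fatty acid synthase, held 29 peaks (chromosome 17, minus strand, 80037010 to 80049172) with a median log2 fold of 3.42 and a highest value of 4.05, and 2 of them reached 4. PHGDH, the first enzyme of serine synthesis, held 23 peaks with a median of 3.57. ALDOA, the glycolytic aldolase, held 16 peaks within 2392 nt with a median of 3.79, and PKM, the pyruvate kinase of glycolysis, held 16 with a median of 4.04.

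RRBP1, a ribosome-binding protein of the endoplasmic reticulum, held 38 peaks with a median log2 fold of 4.46, 5 of them in the 5′ part of the bound span and 26 in the 3′ part. AMOT, which encodes angiomotin of tight junctions, held 26 peaks, and 10 of them filled 81.1% of a 624-nt cluster near the 3′ end (112022284 to 112022907 on chromosome X, minus strand). AKAP12, an anchor protein of protein kinase A, held 24 peaks within only 3565 nt. KHSRP, an RNA-binding protein that promotes decay of AU-rich mRNAs, held 18 peaks with a median of 3.64.

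Counts in 6 gene lists were set beside the whole list, where the median was 3.59 and 27.6% of peaks reached a log2 fold of 4. The lists were drawn up with heavily bound genes of these data known, so their counts are not independent evidence. The share of all genes that hold a peak was not determined. The numbers of members with peaks therefore have no baseline here. Of 14 genes of the cytoskeleton and its scaffolds, 13 held peaks and 10 held 10 or more; TUBB held 0. Their 342 peaks made up 11.7% of the list, with a median of 4.38 and 64.0% at 4 or above. Of 9 translation factors, 7 held peaks, 93 in all, with a median of 3.82 and 34.4% at 4 or above, and EIF4G2 and PABPC1 held 0. Of 8 nuclear and chromatin proteins, 7 held 144 peaks with a median of 4.06 and 56.3% at 4 or above, and KMT2D held 0. Of 10 metabolic enzymes, 8 held 89 peaks with a median of 3.602 and 21.3% at 4 or above, with 0 in ACACA and SCD. All 7 genes of a mixed list (RRBP1, AMOT, CGN, CTNNB1, SNRPB, RPL30 and IARS2) held peaks, 93 with a median of 4.15.

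The last list took 9 genes of proteins that bind quadruplexes or belong to stress granules, and these held few and weak peaks. It does not stand for all such proteins. Of the 9 genes, 6 held peaks, 20 in all, with a median log2 fold of 3.22 and 1 peak at 4 or above. NCL, which encodes the quadruplex-binding nucleolar protein nucleolin, accounted for 14 of them. G3BP1 itself, G3BP2 and CAPRIN1 held 1 peak each, at 3.18, 3.65 and 3.15, CNBP held 2, and DHX36, USP10 and HNRNPA1 held 0. Absence from the list means that no stretch passed the authors' limits at an unknown depth. NCL combined the lowest median log2 fold of the 52 genes, 3.16, with 4 peaks at a −log10 p of 400, and these 4 had log2 folds between 3.001 and 3.13. Fold and p thus ranked NCL differently, whereas over the 2843 peaks below 400 Spearman's rho between both values was 0.63.

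Among the 52 loci with 10 or more peaks, the densest by bound nt per kb were AKAP12 (402), ACTB (378), HUWE1 (169), RPL8 (161) and PLEC (160), against a median of 63.8. The ACTB locus, from the gene of beta-actin, held 12 peaks within 1907 nt (chromosome 7, minus strand, 5567383 to 5569289) with log2 folds from 3.11 to 4.68. RPL8, a protein of the large ribosomal subunit, held 14 peaks within 2583 nt and a highest log2 fold of 4.30. The HUWE1 locus covers a small part of that ubiquitin ligase gene, with 10 peaks in 4 stretches within 1888 nt, and the gene as a whole held 21 peaks in 5 loci.

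The most enriched peaks were compared taking 1 per locus. After the SPTBN1 peak at 6.31 came SNRPB, a core protein of spliceosomal snRNPs, with a log2 fold of 5.92 at 2444451 to 2444542 on chromosome 20 (minus strand). The other 2 SNRPB peaks, upstream of it, had 3.298 and 3.12. Other high peaks lay in PLEC at 5.89, the upstream SPTBN1 locus at 5.79, EIF4G1 at 5.76, FLNA at 5.76, IARS2 at 5.59, RPL30 at 5.49 and CHD4 at 5.40. RPL30, which encodes a protein of the large ribosomal subunit, held 4 short peaks of 20, 6, 2 and 19 nt on chromosome 8, with log2 folds of 4.85, 5.26, 5.48 and 5.49, and none near the limit of 3.

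Strong enrichment also occurred at lone peaks. The 5 strongest of the 494 singly bound loci lay in IARS2, the mitochondrial isoleucyl-tRNA synthetase (chromosome 1, 220267531 to 220267707, log2 fold 5.59), in HACD3 (chromosome 15, 65822908 to 65823026, 5.13) and in IQGAP1 (chromosome 15, 91009233 to 91009275, 4.91), all on the plus strand, and in GTF3C1 (chromosome 16, 27561055 to 27561191, 4.86) and CALM2 (chromosome 2, 47403579 to 47403653, 4.82) on the minus strand. HACD3 encodes an enzyme of very-long-chain fatty acid elongation, IQGAP1 a scaffold of the actin cytoskeleton, GTF3C1 a subunit of the RNA polymerase III factor TFIIIC and CALM2 calmodulin. A lone peak here has no same-strand neighbour within 10000 nt, which does not make it the gene's only peak. IARS2 held 4 peaks in all, HACD3 held 3, IQGAP1 6 and GTF3C1 22, while CALM2 held 1. The IARS2 peak was the 5′-most of its gene, and the other 3 had log2 folds of 4.07, 4.18 and 3.998.

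Along the bound span of the 52 genes, peaks lay more often toward the 3′ end. When each span was divided into 3 parts of equal genomic length, 286 peaks (25.7%, 23.2 to 28.4%) fell in the 5′ part, 315 (28.4%, 25.7 to 31.1%) in the middle and 510 (45.9%, 42.9 to 48.9%) in the 3′ part. The 3′ part held the most peaks in 24 genes, the 5′ part in 11 and the middle in 11, with 6 ties. FLNA went the other way, with 33, 19 and 20 peaks from 5′ to 3′, as did PKM with 14, 0 and 2. The strongest peak lay in the last 10% of the span in 13 genes and in the first 10% in 6. The parts were set on genomic distance from the first to the last bound base, so introns weigh in them, and the place of coding sequence and untranslated regions was not assigned.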

How the data were processed

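G3BP1 seCLIP was made from 2 IP and 2 input libraries of PDS-treated HEK293T cells. The list deposited by the authors combines both replicates; per the submitters' processing notes, cutadapt, UMI-tools and STAR were used with hg19. Neither the peak caller and its filters nor the way of combining replicates is given in the sources used here. The list has no header: column 4 was read as the authors' deposited −log10 p and column 5 as the authors' deposited log2 fold of IP over input, from the values and the usual eCLIP format. Starts were treated as counted from 0 and are printed counted from 1.

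Peaks were sorted by strand, joined where borders touch (runs) and chained over gaps of up to 10000 nt (loci), with python 3.11.15, numpy 2.4.6, pandas 2.3.3 and scipy 1.17.1. The scripts were tested on simulated peaks with planted runs and loci. Alternatives were other chaining and joining distances, a stricter threshold (log2 fold of at least 4 and −log10 p of at least 5), and runs or bound nt in place of peaks. The text names the 20 loci with most peaks, the 10 most enriched peaks (1 per locus), the 5 densest loci of 10 or more peaks, the 5 longest runs and the 5 strongest lone peaks; other genes with 10 or more peaks, and the 500-nt clusters and the 3-part division of gene spans, were chosen after their values were seen. Some members of these lists are not reported here. The members and gene lists were chosen with earlier results of these data known.

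An hg19 annotation was not used here. Approximate hg19 intervals of 89 well-known genes were written from background knowledge, and a peak was given to a gene if it lay inside on the same strand. A RefSeq table of GRCh38.p14 served as a check of names only. All 89 genes were on the same chromosome and in the same order, and the strand was the same for the 74 genes with an entry. The peaks of each gene spanned no more than its length, which holds by construction for genes without peaks. None of these checks compares hg19 positions, so the absence of peaks from a gene rests on its background interval. No sequence was read, because no genome of the list's build was used.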

Additional observations from a re-analysis of the deposited data

How the results depend on the processing

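Of 21 alternative values for 5 results, 18 moved and 3 did not. A value counted as not moved if it lay within the main 95% interval, or within 1.5 times for the number of loci. For the difference in log2 fold, the limits were instead set from the far ends of the 95% intervals of both medians (0.46 to 0.69). They are wider than a 95% interval of the difference. The 5 alternatives run for the difference in log2 fold kept its direction. Chaining over gaps of up to 1000 nt gave 1494 loci, a median gap of 1 nt, 11.2% of peaks in the 20 loci with most peaks, and a difference of 0.73 between loci of 10 or more peaks and lone peaks. Chaining over gaps of up to 50000 nt gave a median gap of 156 nt and 23.0% of peaks in the top 20. The stricter threshold left 808 peaks in 269 loci, with a median gap of 43 nt, 46.5% of peaks in runs and 45.5% in the top 20. With abutting peaks joined first, the median gap was 689 nt. Peaks in runs were 45.3% when neighbours within 10 nt were joined and 49.4% within 50 nt. The top 20 held 15.3% of runs and 12.6% of bound nt. With 1 value per locus the difference in log2 fold was 0.39. Without the 20 loci with most peaks, an alternative chosen after seeing the data, 33.8% of peaks were in runs and the difference was 0.29. Some moves follow from construction (a limit on gaps caps their median, and a stricter threshold leaves fewer peaks); the cause of the others was not tested. No paired analysis was possible because the list gives 1 value per peak for both replicates together. Neither replicate could be left out, since their values are not separate.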

Other observations

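Chromosomes differed in the share of their peaks held by the fullest locus. On chromosome 20, the fullest RRBP1 locus gave 33 of 92 peaks (35.9%), and on chromosome 22 the MYH9 locus gave 33 of 99 (33.3%). The EIF4G1 locus, which takes in 4 peaks of PSMD2, held 32.0% of the peaks of chromosome 3. PLEC held 31.8% of chromosome 8, EIF3A 31.6% of chromosome 10, FLNA 30.9% of chromosome X and SPTAN1 30.5% of chromosome 9. Chromosome 19, by contrast, spread 253 peaks over 93 loci, and its fullest locus, TRIM28, held 7.91%. Chromosome 8 had 5.81 peaks per locus and chromosome X 5.07, while chromosome 13 had 1.29. The median log2 fold was highest on chromosome 8, at 4.06, and lowest on chromosome 13, at 3.23 over 9 peaks. Of the 151 peaks of chromosome 8, PLEC held 48 (median 4.66) and PRKDC, split over 6 loci, held 44 (median 4.02).

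Other heavily bound genes, picked after their values were seen, included INTS1, a subunit of the Integrator complex, with 18 peaks. In INTS1, 3 peaks within a single cluster reached log2 folds of 5.34, 5.35 and 5.23, and the other 15 ranged up to 4.54. RPS3, a protein of the small ribosomal subunit, held 12 peaks with a median of 4.35, and 10 of them reached 4. HNRNPA2B1, a nuclear RNA-binding protein, held 12 peaks that covered only 212 nt, all at 3.53 or below. GNAS, the stimulatory G protein alpha subunit, held 11 peaks with a median of 3.31, and its single strong peak, 5.03, was the 3′-most. CTNNB1, the gene of beta-catenin, held 5 peaks that climbed from 3.499 at the 5′ end through 4.10, 4.58 and 4.76 to 5.28 at the 3′ end.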
